A study of Homo sapiens with 8 samples.

Results

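The genes described here encode 9 plasma membrane transporters that carry amino acids into cells: SLC7A11, SLC3A2, SLC7A5, SLC7A1, SLC1A5, SLC1A4, SLC38A1, SLC38A2 and SLC6A9. They were taken by gene symbol from a table of 20263 genes. All 9 were found, and all 9 passed the filter on low values (a mean of 1 or more CPM, counts scaled to the library total, over the 8 libraries), which left 11827 genes to test. Total RNA was sequenced from cultures of MHCC-97H, an established line of human liver cancer cells, treated for 24 hours. The tested arm received lenvatinib, an inhibitor of VEGF, FGF and other receptor tyrosine kinases, with 1 library each at 40, 60, 80 and 100 µM. The comparison arm received DMSO, the solvent, and has 4 libraries, numbered 1 to 4. All cells grew in DMEM with fetal bovine serum, and the study's design text asks how drug-treated cells differ from the parental ones. The labels do not say that the DMSO libraries were separate cultures, so part or all of the variation among them may be technical. The lenvatinib libraries are 4 doses and not repeats of 1 dose, so differences between doses count as spread in that arm. P-values speak only of the variation among these 8 libraries.

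Amino acid carriers of the plasma membrane include exchangers, which take in 1 amino acid and release another, sodium-coupled carriers that can build up an inward gradient, and facilitators that need no sodium. SLC3A2 (CD98hc, 4F2hc) is a heavy chain that carries no substrate itself and brings light chains to the cell surface. SLC7A5 (LAT1) is its light chain for leucine and other large neutral amino acids, and SLC7A11 (xCT) is its light chain for the exchange of cystine against glutamate, which feeds glutathione synthesis. SLC7A1 (CAT1) carries arginine and lysine. SLC1A5 (ASCT2) and SLC1A4 (ASCT1) exchange alanine, serine and other small neutral amino acids, and SLC1A5 also glutamine. SLC38A1 (SNAT1) and SLC38A2 (SNAT2) are sodium-coupled carriers of glutamine and alanine, and SLC6A9 (GlyT1) takes up glycine. Several of these genes are known targets of ATF4, a transcription factor induced when amino acids run short, and SLC7A11 is also a known target of NRF2 (NFE2L2). Tumours, those of the liver included, often carry much SLC7A5, SLC3A2 and SLC1A5.

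RefSeq promoter windows (GRCh38.p14, 250 bases before to 50 bases after the gene start) were matched for 8 of the 9 genes. The sequences of 4 are shown, since ATF4 reads C/EBP-ATF response elements, whose core is TGATGNAA. The windows of SLC3A2, SLC7A1 and SLC38A1 hold this motif, in capitals, and the window of SLC6A9, the transporter with the lowest p-value below, does not. Each window follows RefSeq's start of the gene, which for SLC3A2 and SLC38A1 lies inside the wider span printed for the gene below. In SLC3A2 the motif stands on the opposite strand and is therefore read as its reverse complement.
SLC3A2: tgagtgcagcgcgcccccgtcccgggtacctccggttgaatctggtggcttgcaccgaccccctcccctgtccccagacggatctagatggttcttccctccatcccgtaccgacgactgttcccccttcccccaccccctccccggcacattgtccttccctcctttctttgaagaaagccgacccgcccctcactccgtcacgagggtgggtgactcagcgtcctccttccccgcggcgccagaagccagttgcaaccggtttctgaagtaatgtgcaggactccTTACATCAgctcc
SLC7A1: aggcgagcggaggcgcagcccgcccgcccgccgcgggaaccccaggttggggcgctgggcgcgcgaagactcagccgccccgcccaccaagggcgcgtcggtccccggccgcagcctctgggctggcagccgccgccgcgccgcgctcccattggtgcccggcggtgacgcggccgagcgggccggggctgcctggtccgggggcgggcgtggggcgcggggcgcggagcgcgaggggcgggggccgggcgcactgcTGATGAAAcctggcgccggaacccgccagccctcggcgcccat
SLC38A1: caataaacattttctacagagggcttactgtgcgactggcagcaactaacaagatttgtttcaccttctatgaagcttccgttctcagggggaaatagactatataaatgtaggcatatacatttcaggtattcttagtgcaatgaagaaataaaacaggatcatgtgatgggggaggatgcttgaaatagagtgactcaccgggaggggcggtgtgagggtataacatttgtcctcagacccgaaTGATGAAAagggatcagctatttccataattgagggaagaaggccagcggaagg
SLC6A9: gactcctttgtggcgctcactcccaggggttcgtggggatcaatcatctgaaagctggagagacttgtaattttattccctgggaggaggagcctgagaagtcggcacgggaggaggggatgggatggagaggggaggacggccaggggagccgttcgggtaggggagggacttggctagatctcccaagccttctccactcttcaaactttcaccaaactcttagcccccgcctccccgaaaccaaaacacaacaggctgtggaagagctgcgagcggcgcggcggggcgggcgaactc
These windows lie at chr11:62881449-62881748 on the plus strand and at chr13:29595639-29595938, chr12:46266467-46266766 and chr1:44031413-44031712 on the minus strand, in that order. The motif begins 38 bases into the transcript in SLC3A2, 8 bases into it in SLC7A1, and at position -4 from the start in SLC38A1. On either strand, 3.67% of 27305 RefSeq promoter windows hold it. The core of the antioxidant response element, TGACNNNGC, was found in the windows of SLC3A2, SLC7A1 and SLC7A5 and in 13.6% of all windows. The E-box CACGTG, which reads the same on both strands, was found in that of SLC7A5 and in 7.43% of all windows. The GC box GGGCGG was found in 7 of the 8 windows and in 44.6% of all, and no match to a motif overlapped a match to another. These are matches of letters and not measured binding sites.

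Library totals ran from 10181973 to 37384578 counts among the lenvatinib libraries, lowest at 60 µM, and from 30635814 to 34240835 counts among the DMSO libraries. A count of 0 allows up to 3 counts, or 0.0802 to 0.295 CPM, and this floor covers counting error only. The libraries differed from each other with gene GC content. The GC slope of a library says by how much, in log2 units, its genes deviate from their 8-library average for each 10 points of GC percentage. It was 0.67, 1.82, -0.58 and -0.60 at 40, 60, 80 and 100 µM. The slope was 0.28, -0.50, -0.99 and -0.10 in DMSO 1 to 4. GC-rich genes were thus highest at 60 µM and lowest in DMSO 3. Here and below, CPM is TMM-scaled, that is, corrected for library composition, unless another scaling is named, and on this scale the floor at 60 µM is 0.483 CPM. The epithelial keratins KRT8 and KRT18 were well expressed. Summed epithelial markers ran from 3690 to 13200 CPM with lenvatinib and from 5040 to 14400 CPM in DMSO, almost all of it KRT8 and KRT18. The epithelial markers KRT19, EPCAM and CDH1 averaged 0.161, 0.305 and 0.242 CPM with lenvatinib. In DMSO they averaged 0, 0.469 and 1.38 CPM, and they were not tested. KRT19 had 4 reads in all, only at 60 µM. Hepatocyte markers summed to 1.19 to 5.79 CPM and 7.25 to 10.2 CPM, with APOB and TTR without a read, and 1 of the 7, HNF4A, was tested. ALB, AFP and APOA1 had 6, 2 and 10 reads in all, also only at 60 µM. HNF4A had 1.78 ± 1.11 CPM with lenvatinib and 8.42 ± 1.23 CPM in DMSO, without overlap, as for 3.38% of all genes in this direction. It was called lower with the GC slope as a covariate (log2 fold change -2.42, edgeR adjusted p = 0.0229), as were 1.78% of all genes. Without 80 µM that fit called 0 genes. At 60 µM, which is 1 library, the log2 fold change of HNF4A was -2.71. Fibroblast markers summed to 61.9 to 95.1 CPM and 75.8 to 84.2 CPM, leukocyte markers to 2.47 to 11.3 CPM and 5.21 to 12.6 CPM, and endothelial markers to 0 to 4.06 CPM and 1.44 to 2.68 CPM, with lenvatinib given first in each pair. PTPRC, CD3E and COL1A2 had no read. The macrophage marker CD68 had 5.79 ± 3.67 CPM with lenvatinib and 8.25 ± 3.25 CPM in DMSO. It was called lower with the GC slope covariate (log2 fold change -1.19, edgeR adjusted p = 0.0240), with the limits of that fit given for HNF4A. The endothelial marker VWF, at 1.86 ± 0.633 CPM in DMSO, had no read at 60 µM and was called lower there. Calls at that dose rest on 1 library and are read against the background given below. The part of GC slope and of these markers in the results below was not tested, except where a value with the GC slope as a covariate is given. In whole cultures, fewer cells with a transcript and less transcript per cell cannot be told apart.

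Measured per length, as the deposited TPM (reads scaled by transcript length and by library), SLC7A5 was the most abundant of the 9 in every library. It averaged 1225 ± 98.7 TPM with lenvatinib and 925.9 ± 55.4 TPM in DMSO (SD, n = 4 each, as for all means here). With lenvatinib the 4 libraries are 4 doses, so the SD there includes differences between doses. SLC3A2, its heavy chain, came next with 867.9 ± 96.4 TPM with lenvatinib and 588 ± 67.6 TPM in DMSO, followed by SLC1A5 with 503.6 ± 152.8 TPM and 337 ± 54.0 TPM. SLC6A9, a glycine carrier best known from brain and blood cell precursors, followed at 181.6 ± 81.7 TPM with lenvatinib and 89.4 ± 9.72 TPM in DMSO. The top 3 stood in this order, each above the next, in every library of both arms, and SLC6A9 stood below SLC1A5 in every library. Among the lenvatinib libraries SLC6A9 was also above every member that follows. In DMSO it overlapped the next, SLC38A2.

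Below these, neighbours in the order overlapped between libraries. SLC1A4 averaged 43.0 ± 5.85 TPM with lenvatinib and 33.1 ± 1.87 TPM in DMSO, and SLC7A1 averaged 31.98 ± 12.3 TPM and 35.1 ± 8.34 TPM. SLC38A2 averaged 39.1 ± 40.2 TPM with lenvatinib and 38.7 ± 39.3 TPM in DMSO, so its spread was as large as its mean. SLC38A1 averaged 19.0 ± 19.0 TPM and 29.7 ± 27.8 TPM, and SLC7A11, the cystine carrier, was the lowest at 5.65 ± 5.09 TPM and 4.04 ± 3.33 TPM. The 9 together made up 0.545%, 0.703%, 0.556% and 0.491% of all counts at 40, 60, 80 and 100 µM, against 0.449%, 0.396%, 0.37% and 0.427% in DMSO 1 to 4.

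**Figure D1:**
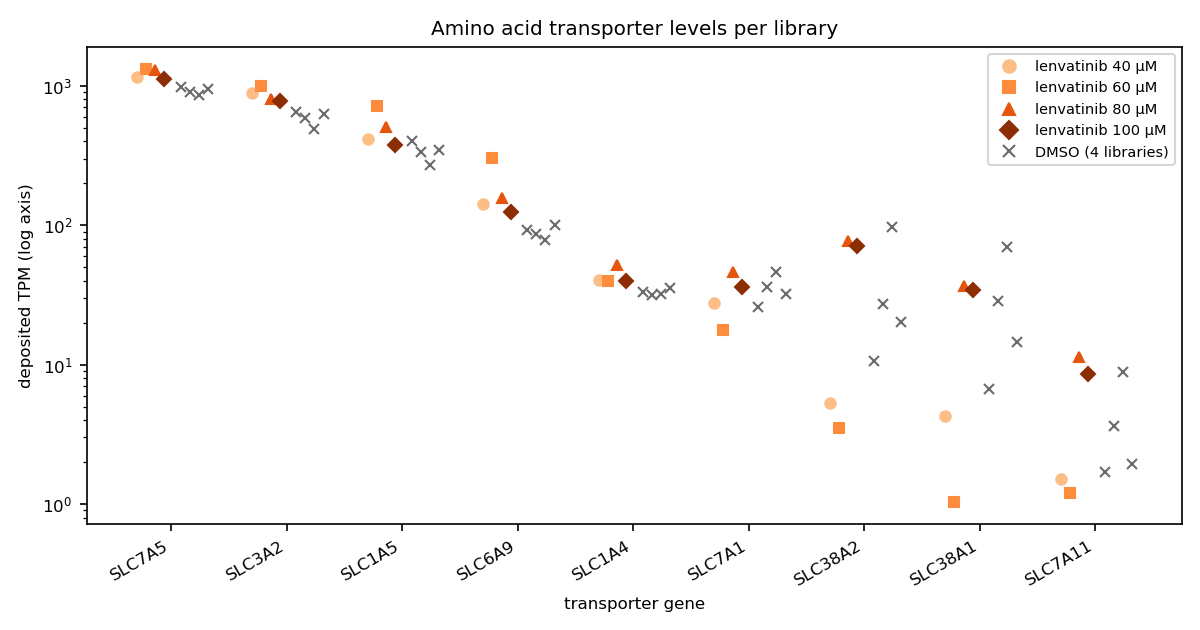
Deposited TPM (log axis) of the 9 transporters in each library, 1 point per library, with the 4 lenvatinib doses left of the DMSO libraries. SLC7A5, SLC3A2 and SLC1A5 hold the top places in every library, whereas SLC38A1, SLC38A2 and SLC7A11 spread widely within both arms.

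The transporters split by how their level followed the GC slope over the 8 libraries. These are descriptions over libraries that share one trend of base composition. The slope was computed from these same libraries and the GC content of the tested genes. A rise of GC-rich genes and a fall of GC-poor genes with it is therefore largely built in and not particular to transporters. With the arms on parallel lines, the log2 of TMM-scaled CPM plus 0.5 of SLC1A5, SLC6A9, SLC3A2, SLC7A5 and SLC1A4 increased with the slope, by 0.98, 0.94, 0.77, 0.64 and 0.52 per unit (Pearson r over the 8 libraries, arms pooled, = 0.984, 0.952, 0.975, 0.972 and 0.931). The system A carriers SLC38A1 and SLC38A2 and the cystine carrier SLC7A11 ran the other way, at -1.63, -1.39 and -0.87 per unit (r = -0.989, -0.914 and -0.7). SLC7A1 was nearly flat, at 0.06 per unit (r = 0.373). The longest transcripts of SLC7A11, SLC38A2 and SLC38A1 hold 35.4%, 38.1% and 41.3% GC, which places them in percentiles 2.0, 8.07 and 20.6 of the tested genes. Those of SLC3A2, SLC6A9, SLC7A5 and SLC1A5 hold 57.4%, 59.6%, 61.1% and 61.3%, in percentiles 75.0 to 87.5. SLC1A4, which increased with the slope, is not GC-rich at 46.5% (percentile 41.0, against a median gene of 49.1%), and SLC7A1 holds 52.7%.

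**Figure D2:**
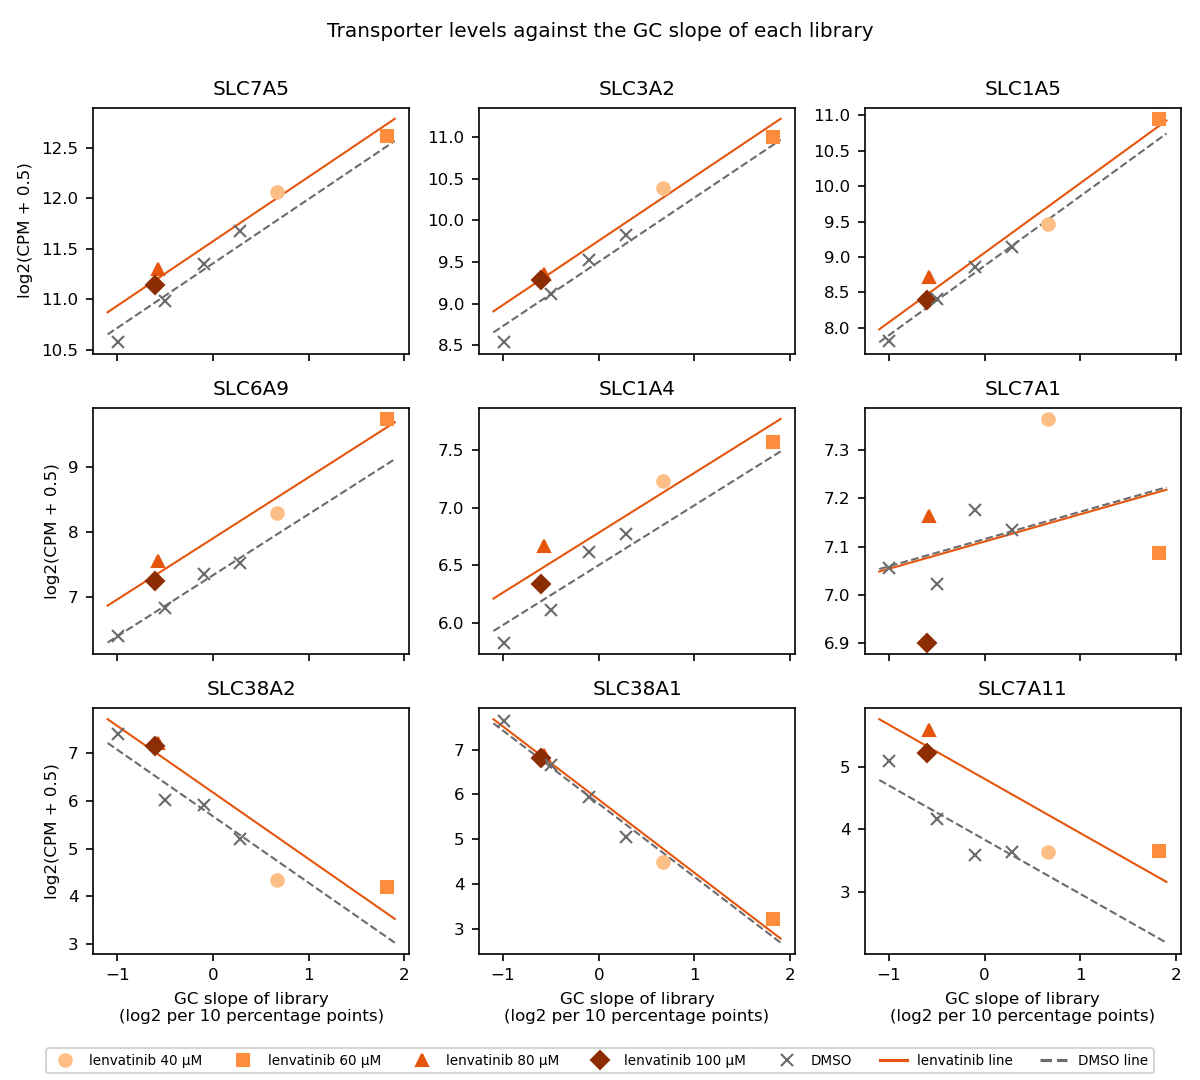
Log2 of TMM-scaled CPM plus 0.5 for each transporter against the GC slope of the library (log2 per 10 percentage points), with 1 point per library and parallel fitted lines for the lenvatinib and DMSO arms. The lines run upward for 5 members and downward for SLC7A11, SLC38A1 and SLC38A2, and SLC7A1 covers a narrow range. In SLC7A11 the 40 µM library is below the lenvatinib line and the 60 µM library above it.

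**Figure D3:**
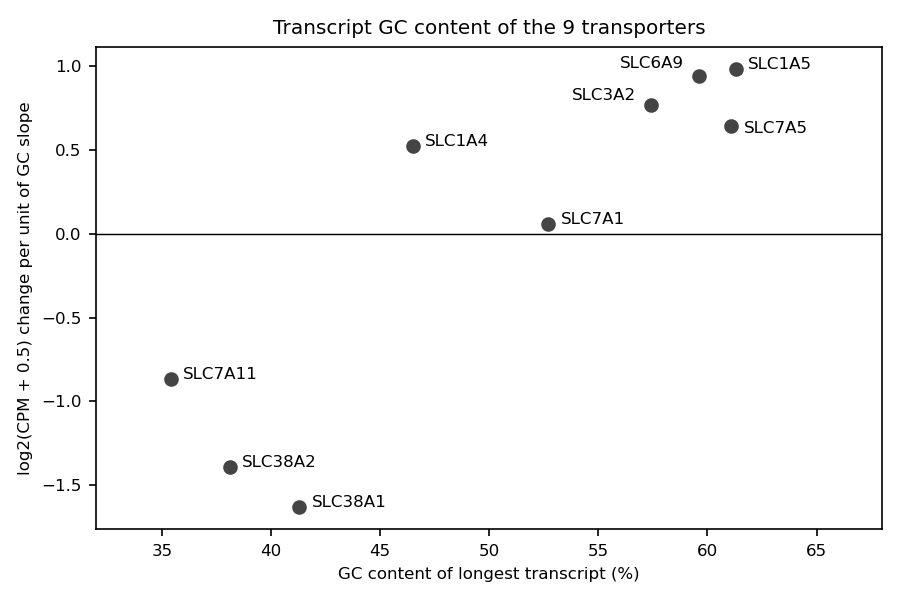
Log2 change per unit of GC slope (vertical) against the GC content of the longest transcript (percent, horizontal), 1 point per transporter. The 3 transcripts below 42% GC have negative changes, and the members above 57% have positive ones. The GC slope is computed from the GC content of the tested genes, so these directions are largely built in.

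SLC3A2 (ENSG00000168003, GRCh38 chr11:62856102-62888875, plus strand) had a higher mean with lenvatinib, and whether its arms overlapped depended on the scale. Its TPM was 882.9, 997.5, 809.7 and 781.4 at 40, 60, 80 and 100 µM, against 645.9, 587.7, 493.4 and 625.6 in DMSO 1 to 4. The arms did not overlap in TPM. In CPM scaled by TMM, which corrects each library for composition, it was 1335, 2049, 654.8 and 622.7 CPM at the 4 doses and 906.8, 555.4, 370.9 and 733.3 CPM in DMSO. On that scale the 80 and 100 µM libraries lay inside the DMSO range. Its log2 fold change of lenvatinib over DMSO was 0.86 ± 0.48 (SE) in the edgeR quasi-likelihood fit, with a Benjamini-Hochberg adjusted p of 0.874. With the GC slope as a covariate it was 0.25 ± 0.13 (edgeR adjusted p = 0.315).

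SLC7A5 (ENSG00000103257, chr16:87830023-87869488, minus strand) followed SLC3A2 closely. Its TPM was 1164, 1326, 1290.4 and 1120.0 at the 4 doses, against 987.6, 909.2, 858.1 and 948.6 in DMSO, again without overlap. In TMM-scaled CPM the values were 4293, 6273, 2530 and 2266 CPM with lenvatinib, against 3269, 2023, 1525 and 2615 CPM in DMSO, and the arms overlapped. The log2 fold change was 0.70 ± 0.42 without and 0.22 ± 0.13 with the GC slope covariate (edgeR adjusted p = 0.874 and 0.393). Over the 8 libraries the log2 levels of heavy chain and light chain had r = 0.998, as a description of libraries that share the GC trend.

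SLC7A11 (ENSG00000151012, chr4:138164097-138242349, minus strand) was at a far lower level than its heavy chain. Over the 8 libraries their log2 levels had r = -0.639, again as a description of libraries that share the GC trend. Per unit of GC slope SLC7A11 changed by -0.87 and SLC3A2 by 0.77. SLC7A11 had 11.9, 12.1, 47.3 and 36.7 TMM-scaled CPM at 40, 60, 80 and 100 µM, against 11.9, 17.3, 33.5 and 11.5 CPM in DMSO 1 to 4. The 80 and 100 µM libraries were the highest of the 8, and the 40 and 60 µM libraries stood with DMSO 1 and 4. Its log2 fold change was 0.54 ± 0.58 (edgeR adjusted p = 0.874). With the GC slope as a covariate it was 1.01 ± 0.27, the largest of the 9 in that fit, and it did not pass (edgeR adjusted p = 0.0872). Log2 levels adjusted for the GC slope ran from 4.22 at 40 µM to 5.23 at 60 µM with lenvatinib, and from 3.50 to 4.23 in DMSO, so the arms overlapped between 40 µM and DMSO 3. Leaving out 1 library at a time, the adjusted p ran from 0.00633 without 60 µM to 0.426 without 80 µM, with log2 fold changes of 0.93 and 0.83 there. It also passed without 40 µM (edgeR adjusted p = 0.0264).

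SLC7A1 (ENSG00000139514, chr13:29509410-29595688, minus strand), the arginine and lysine carrier, varied least of the 9 in TMM-scaled CPM, though not in TPM, where it spanned 2.63-fold, against 1.55-fold for SLC7A5. It had 164, 135, 143 and 119 TMM-scaled CPM at the 4 doses, against 140.0, 130, 132 and 144 CPM in DMSO. The DMSO libraries lay within the range of the lenvatinib libraries. The log2 fold change was 0.04 ± 0.22 without and 0.0026 ± 0.13 with the GC slope covariate (edgeR adjusted p = 0.947 and 0.995).

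SLC1A5 (ENSG00000105281, chr19:46774883-46788594, minus strand) was far the highest at 60 µM. It had 704, 1980.5, 419 and 337 TMM-scaled CPM with lenvatinib, against 563, 339, 225 and 465 CPM in DMSO, and the arms overlapped. In TPM it had 415.7, 717, 507.6 and 374 with lenvatinib, against 400.7, 334, 269 and 345 in DMSO, and 1 lenvatinib library, 100 µM, lay below DMSO 1. The log2 fold change was 1.11 ± 0.60 without the GC slope covariate and 0.19 ± 0.14 with it (edgeR adjusted p = 0.874 and 0.470).

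SLC1A4 (ENSG00000115902, chr2:64988490-65023865, plus strand), the smaller of the pair in these cells, separated the arms in TPM. It had 40.6, 40.1, 51.8 and 39.6 TPM with lenvatinib, against 33.1, 31.4, 32.2 and 35.7 TPM in DMSO. In TMM-scaled CPM, at 150.2, 190.3, 101 and 80.5 with lenvatinib against 109, 68.7, 56.4 and 97.7 in DMSO, the arms overlapped. The log2 fold change was 0.66 ± 0.36 without and 0.28 ± 0.14 with the covariate (edgeR adjusted p = 0.874 and 0.296).

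SLC38A1 (ENSG00000111371, chr12:46183063-46269951, minus strand) and SLC38A2 (ENSG00000134294, chr12:46358189-46372867, minus strand) are neighbours on chromosome 12, and both ranged widely within each arm. SLC38A1 had 22.1, 8.85, 117 and 112 TMM-scaled CPM at 40, 60, 80 and 100 µM, against 33.0, 100.1, 199 and 61.1 CPM in DMSO 1 to 4. SLC38A2 had 19.8, 17.9, 147 and 141 CPM at the 4 doses, against 36.4, 64.7, 169 and 59.5 CPM in DMSO. In both, 40 and 60 µM were the lowest of the 8 libraries and DMSO 3 the highest, and the 80 and 100 µM libraries lay inside the DMSO range. SLC38A1 rested on 55 counts at 60 µM and 8292 in DMSO 3. The log2 fold changes were -0.59 ± 0.85 and -0.01 ± 0.80 (edgeR adjusted p = 0.874 and 0.998). With the GC slope covariate they were 0.08 ± 0.17 and 0.54 ± 0.31 (edgeR adjusted p = 0.838 and 0.372).

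SLC6A9 (ENSG00000196517, chr1:43991500-44031462, minus strand) had the lowest p of the 9 in both fits. Its TPM was 142.6, 302.5, 157 and 124 at the 4 doses, against 93.1, 86.3, 77.8 and 100.6 in DMSO, without overlap. It had 313, 851.8, 188 and 151.9 TMM-scaled CPM with lenvatinib, against 184, 114, 84.0 and 163 CPM in DMSO, where 100 µM lay inside the DMSO range. The log2 fold change was 1.47 ± 0.58 (edgeR adjusted p = 0.874), and with the GC slope covariate 0.58 ± 0.13 (edgeR adjusted p = 0.0553), just outside the threshold of 0.05. Adjusted for the GC slope, its log2 level was 7.66, 8.03, 8.10 and 7.82 at 40, 60, 80 and 100 µM, against 7.26, 7.30, 7.33 and 7.45 in DMSO. All 4 lenvatinib libraries were above all 4 DMSO libraries on this scale, as they were for 9.72% of all genes tested. Leaving out 1 library at a time, the covariate's log2 fold change stayed between 0.45 without 80 µM and 0.64 without 40 µM, with edgeR adjusted p from 0.00400 without 60 µM to 0.339 without 80 µM. It also passed without 40 µM (edgeR adjusted p = 0.0198). CCDC24, at 4.35 to 24.8 CPM, overlaps SLC6A9 on the opposite strand, and without a stated strand their shared reads cannot be told apart.

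Of the 9 transporters, 0 passed the comparison of lenvatinib with DMSO by edgeR, and of all genes tested 0% passed. At an unadjusted p under 0.05 stood 1 of the 9, SLC6A9, beside 4.42% of all genes. DESeq2 and limma-voom also called 0 of the 9, with 94 genes (0.795%) called by DESeq2. Fold changes were positive for 7 members and negative for SLC38A1 and SLC38A2, with a median log2 fold change of 0.66 over the members and -0.11 over all genes. With the GC slope covariate 0 of the 9 passed, while 386 genes (3.26%) did, and at an unadjusted p under 0.05 stood 2 of the 9, SLC7A11 and SLC6A9, beside 20.3% of all genes. All 9 fold changes were positive in that fit, that of SLC7A1 by 0.0026, with a median of 0.25 over the members and -0.06 over all genes.

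The covariate fit's count moved with the 60 µM library and with the tool. Without the 60 µM library SLC7A11, SLC6A9, SLC3A2, SLC7A5 and SLC1A4 passed, 5 of the 9, all higher with lenvatinib, while 23.3% of all genes passed. Their log2 fold changes were then 0.93, 0.57, 0.30, 0.26 and 0.33 (edgeR adjusted p = 0.00633, 0.00400, 0.0148, 0.0366 and 0.0435). With only 80 and 100 µM against DMSO 6 passed, SLC1A5 in addition at 0.32 (edgeR adjusted p = 0.0461), beside 20.7% of all genes. Without the 40 µM library SLC7A11 and SLC6A9 passed, beside 8.48% of all genes. Without the 80 µM library 0 members passed, as did 0 of all genes, and without 100 µM 0 members and 9 genes passed. Leaving out any 1 DMSO library also gave 0 members, with 18 to 215 genes called. DESeq2 with the covariate called the same 5 genes as the fit without 60 µM, beside 17.2% of all genes, and limma-voom called SLC7A11 and SLC6A9, beside 7.02%.

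**Figure D4:**
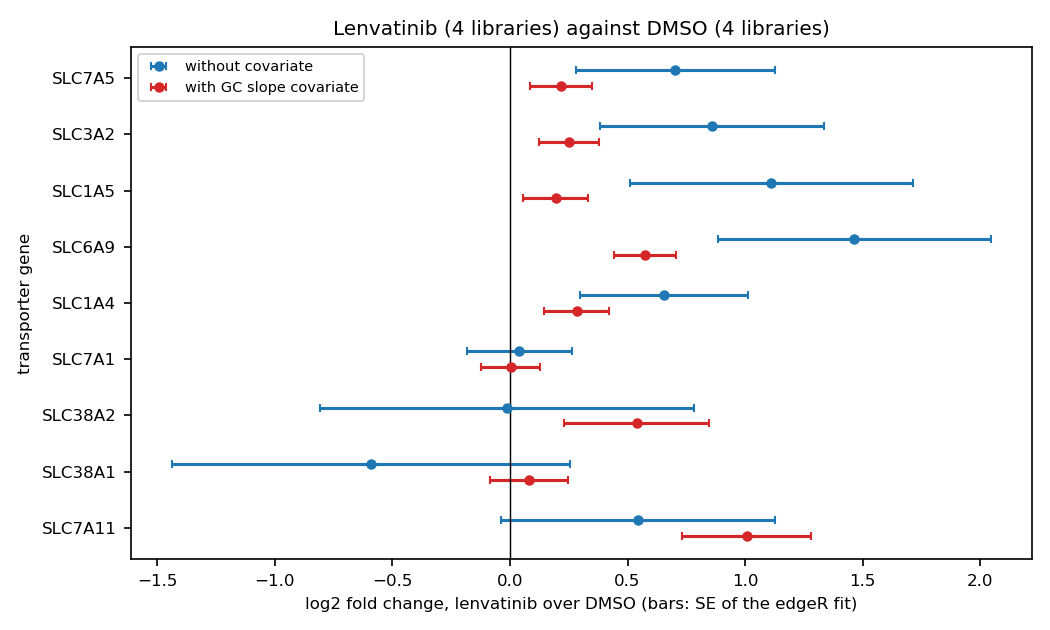
Log2 fold changes of lenvatinib over DMSO with standard errors from edgeR, without and with the GC slope covariate. The covariate narrows the errors and brings the estimates for SLC3A2, SLC7A5, SLC1A5 and SLC1A4 below 0.3, while that of SLC7A11 is 1.01 and that of SLC6A9 is 0.58.

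Whether the arms overlapped changed with the scale. In deposited TPM, all 4 lenvatinib libraries were above all 4 DMSO libraries for SLC7A5, SLC3A2, SLC6A9 and SLC1A4, 4 of the 9, beside 4.84% of all genes. In CPM scaled by library totals these 4 also separated, beside 4.96% of all genes. In TMM-scaled CPM the arms of all 9 overlapped, while 3.08% of all genes lay above, 3.38% below and 6.46% outside DMSO in either direction. TMM factors ran from 0.61 at 60 µM to 1.28 at 80 µM with lenvatinib and from 0.85 to 1.33 in DMSO.

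All members but SLC38A1 and SLC38A2 had positive estimates, none of them called, within each of 2 sets of libraries chosen after the GC slopes were seen. The mean GC slope of the 80 and 100 µM libraries was -0.589, against -0.746 in DMSO 2 and 3, a difference of 0.157. That of the 40 and 60 µM libraries was 1.24, against 0.0926 in DMSO 1 and 4, and this difference of 1.15 is wider than the 0.654 of the full comparison. For 40 and 60 µM against DMSO 1 and 4, log2 fold changes were 1.78 for SLC6A9, 1.42 for SLC1A5, 1.07 for SLC3A2, 0.87 for SLC7A5 and 0.74 for SLC1A4. They were 0.05 for SLC7A11, 0.09 for SLC7A1, -1.34 for SLC38A2 and -1.60 for SLC38A1, and edgeR called 0 of the 9 and 0% of all genes. For 80 and 100 µM against DMSO 2 and 3 they were 0.83 for SLC6A9, 0.78 for SLC7A11, 0.59 for SLC1A4, 0.51 for SLC3A2, 0.48 for SLC7A5 and 0.47 for SLC1A5. There SLC38A2 was at 0.36, SLC7A1 at 0.05 and SLC38A1 at -0.33, and edgeR called 0 of the 9 and 0.00832% of all genes (1 gene). SLC6A9 had the highest of the 9 estimates in both sets, and the sign of SLC38A2 differed between them.

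Against DMSO, 2 members rose at 60 µM in a fit with each dose as its own group. This fit takes the spread of a dose's only library to be that of DMSO. The log2 fold change was 2.65 ± 0.45 for SLC6A9 and 2.32 ± 0.50 for SLC1A5 (edgeR adjusted p = 0.0267 and 0.0301). At that dose 37.2% of all genes were called, 11.9% higher and 25.3% lower, and the median gene stood at -0.74, so 2 of 9 higher is read against a background of that size. SLC3A2 (1.68, edgeR adjusted p = 0.0504), SLC1A4 (1.20, 0.0654), SLC38A1 (-3.47, 0.0668) and SLC7A5 (1.41, 0.0677) did not pass. Without DMSO 2 or without DMSO 4, 0 members and 0 genes were called at 60 µM, while without DMSO 1 or DMSO 3 there were 7 members, beside 56.5% and 52.4% of all genes. The 60 µM library also has the fewest counts and the steepest GC slope.

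At 40, 80 and 100 µM 0 of the 9 passed, as did 0% of all genes, and 8.62%, 2.84% and 2.21% of genes had an unadjusted p under 0.05. Of the members, SLC6A9 at 40 µM had such a p (log2 fold change 1.20 ± 0.48, edgeR adjusted p = 0.388), and none did at 80 or 100 µM. SLC7A11 was at -0.64, -0.62, 1.35 and 0.98 at 40, 60, 80 and 100 µM (edgeR adjusted p of at least 0.491). SLC38A1 was at -2.16 at 40 µM, 0.25 at 80 µM and 0.19 at 100 µM, and SLC38A2 at -2.06, 0.84 and 0.77.

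A slope with dose within the lenvatinib arm was called for 0 of the 9 and 0% of all genes, with 7.4% of genes at an unadjusted p under 0.05. Per 20 µM, SLC38A2 had a log2 slope of 1.16 ± 0.40 (edgeR adjusted p = 0.295), SLC38A1 of 1.01 ± 0.46 and SLC7A11 of 0.70 ± 0.33. SLC1A5, SLC6A9, SLC3A2, SLC7A5, SLC1A4 and SLC7A1 had slopes of -0.69, -0.66, -0.53, -0.43, -0.38 and -0.13. The GC slope also falls with dose among the lenvatinib libraries from 60 µM on, and with it as a covariate the slopes of SLC1A5 and SLC6A9 were 0.11 and 0.0872. Adjusted for the GC slope, the log2 level of SLC38A1 was 5.58, 6.18, 5.94 and 5.84 at 40, 60, 80 and 100 µM. In the same order it was 5.27, 6.73, 6.40 and 6.30 for SLC38A2 and 4.22, 5.23, 5.08 and 4.69 for SLC7A11. In each of these genes it was highest at 60 µM.

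Ratios within a library set members of a role beside each other, with pairs chosen after the values were seen. The ratio of SLC6A9 to SLC1A5 TPM was 0.343, 0.422, 0.31 and 0.332 at 40, 60, 80 and 100 µM, against 0.232, 0.258, 0.289 and 0.292 in DMSO. All 4 lenvatinib values were above all 4 DMSO values, at 0.352 ± 0.0488 and 0.268 ± 0.0282, as for 0.583% of all genes set over SLC1A5, while 9.98% lay below. These shares were taken for this pair alone, the one that separated. They therefore do not show how rare such a separation is among pairs. The ratio of SLC7A5 to SLC3A2 was 1.32, 1.33, 1.59 and 1.43 with lenvatinib, against 1.53, 1.55, 1.74 and 1.52 in DMSO, and the arms overlapped at 80 µM. SLC38A2 over SLC38A1 was 1.24, 3.38, 2.12 and 2.06 with lenvatinib and 1.59, 0.959, 1.4 and 1.4 in DMSO, with 40 µM below most DMSO values. SLC1A5 over SLC1A4 was 10.2, 17.9, 9.8 and 9.44 with lenvatinib and 12.1, 10.6, 8.36 and 9.67 in DMSO, highest at 60 µM and overlapping otherwise. SLC7A11 made up 0.0012 to 0.014 of the SLC3A2 level with lenvatinib and 0.00262 to 0.018 of it in DMSO.

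**Figure D5:**
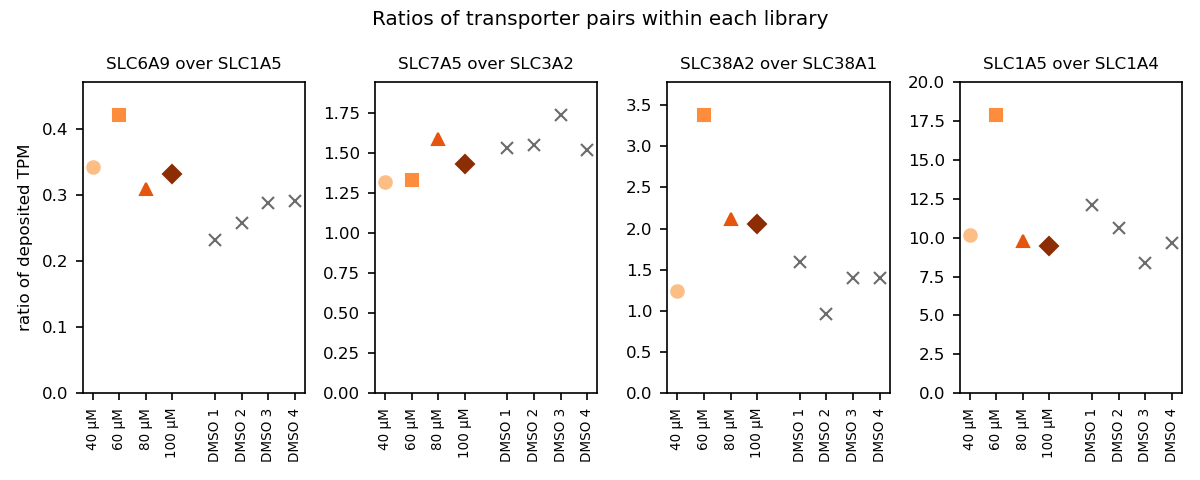
Ratios of TPM between members in each library, with lenvatinib libraries left of DMSO libraries. SLC6A9 over SLC1A5 separates the arms, at 0.31 to 0.422 with lenvatinib and 0.232 to 0.292 in DMSO, and the other ratios overlap.

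Of 30 other amino acid transporters of the plasma membrane, 11 were tested and 0 passed the comparison without covariate (3 positive and 8 negative, median -0.06). With the GC slope covariate 2 fell and 0 rose, beside 1.78% and 1.48% of all genes, and the median was -0.10. SLC38A5, a carrier of glutamine, histidine and serine of the SLC38 family, had 261 ± 191 CPM with lenvatinib and 360.0 ± 161 CPM in DMSO, with a covariate log2 fold change of -1.32 ± 0.17 (edgeR adjusted p = 0.0118). Without 80 µM its adjusted p was 0.0985, and it also missed the threshold without 100 µM, DMSO 1 or DMSO 4. SLC43A2 (LAT4), a facilitator for large neutral amino acids, had 76.9 ± 53.9 CPM and 79.7 ± 17.9 CPM and -0.86 ± 0.19 (edgeR adjusted p = 0.0488), a call lost without 80 µM, 100 µM or any 1 DMSO library and with no filter on low counts (adjusted p = 0.0596). Without the covariate the lowest p-values were those of SLC6A6 (TauT), the taurine carrier, at 97.5 ± 22.8 CPM with lenvatinib and 50.5 ± 39.9 CPM in DMSO, and SLC7A6 (y+LAT2), a light chain of SLC3A2, at 33.0 ± 4.84 CPM and 56.9 ± 30.7 CPM. Values at 60 µM are those of 1 library and are read against the background at that dose given above. At 60 µM SLC6A15, a carrier of branched-chain amino acids and proline, fell to 0.322 CPM, against 7.61 ± 2.14 CPM in DMSO. SLC1A1, a glutamate and cysteine carrier, fell there to 0 reads, at least 9.62-fold lower than its DMSO mean of 4.64 CPM with the TMM-scaled floor of 0.483 CPM in that library.

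Of 8 genes listed as lysosomal transporters, 7 were tested and 0 passed in either fit (4 positive and 3 negative in each). The list includes SLC29A3, which is a nucleoside transporter. SLC36A1, a proton-coupled carrier of small amino acids, had 20.3 ± 2.40 CPM with lenvatinib and 12.4 ± 4.62 CPM in DMSO, and the arms did not overlap in TMM-scaled CPM, as for 3.08% of all genes in this direction, but overlapped in CPM scaled by library totals. CTNS, the cystine exporter of the lysosome, rose at 60 µM to 92.2 CPM, against 29.4 ± 7.28 CPM in DMSO (log2 fold change 1.65). That is a value of 1 library and is read against the background at 60 µM given above. In the comparison of the arms with the GC slope covariate its log2 fold change was 0.05 ± 0.11.

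Of 11 known regulators of these transporters, 0 passed by edgeR without the covariate, and ATF4 was the only one that passed with it. Without the covariate 4 were positive and 7 negative (median log2 fold change -0.45), and with it 5 were positive and 6 negative (median -0.05). With the covariate 1.48% of all genes were called higher and 1.78% lower. ATF4 had 294 ± 49.7 CPM with lenvatinib and 160.0 ± 7.97 CPM in DMSO, without overlap on this TMM scale (3.08% of all genes in this direction) but with overlap when scaled by library totals. It had a covariate log2 fold change of 0.81 ± 0.14 (edgeR adjusted p = 0.0240). The call was lost without 80 µM, 100 µM, DMSO 1, DMSO 2 or DMSO 4. Without the covariate DESeq2 called it (adjusted p = 0.0299) and edgeR did not (adjusted p = 0.874). NEDD4L, a ubiquitin ligase known to act on membrane transporters, had 17.6 ± 8.36 CPM with lenvatinib and 39.0 ± 6.01 CPM in DMSO. Its arms did not overlap on the TMM scale, as for 3.38% of all genes in this direction, and overlapped when scaled by library totals (edgeR adjusted p = 0.874 without the covariate). NFE2L2, which encodes NRF2, had 18.3 ± 17.4 CPM and 26.8 ± 22.2 CPM. At 60 µM ATF4 rose to 354 CPM, and EIF2AK4 (GCN2), EIF2AK3 (PERK) and NEDD4L fell to 0.966, 0 and 5.15 CPM, against DMSO means of 32.8, 7.78 and 39.0 CPM. For EIF2AK3 that is at least 16.1-fold lower, with the same floor. These are values of 1 library, the one with the fewest counts and the steepest GC slope. They are read against the background at 60 µM given above.

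The genes most like each member were sought by Pearson's r of log2 CPM over the 8 libraries, among 9444 genes averaging 5 CPM or more, and are a description of libraries that share the GC trend. For SLC3A2, SLC7A5, SLC1A5 and SLC38A1 the nearest were PRDX2 (r = 0.999), TMEM121 (0.998), NLRX1 (0.997) and RB1 (0.999), and 1370, 1272, 1245 and 1746 genes had r above 0.95. SLC6A9 was nearest to ESPN (0.997), SLC1A4 to RELB (0.997) and SLC38A2 to VPS8 (0.991), with 710, 526 and 346 such genes. SLC7A11 was nearest to AC138969.1 (0.991), followed by GABRE and ZBTB34, and 14 genes had r above 0.95 with it. SLC7A1 was nearest to MCM3AP (0.894) and had 0 such genes.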

How the data were processed

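The authors' table gives, per the file headers, a read count, a TPM and an FPKM for every gene in every library. Within a library the deposited TPM is a constant multiple of the deposited FPKM, and FPKM was used for that check alone. Per the submitters' processing notes, reads were handled with FastQC, HISAT2, StringTie and bedtools on GRCh38. Not given in the sources used here are the library preparation, its strandedness, the counting tool and the annotation release.

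Deposited counts of 11827 of 20263 genes (mean CPM of 1 or more) were fitted by robust quasi-likelihood with TMM scaling, two-sided, in edgeR 4.0.16 (R 4.3.3), and Benjamini-Hochberg adjustment over all genes tested, with calls at an adjusted p under 0.05. The fit without covariate has 6 residual degrees of freedom, those with the GC slope or dose slope 5, and that with each dose 3. The dose slope is per 20 µM, centred at 70 µM. GC content is that of the longest GENCODE v29 transcript, lacking for 4 tested genes. TPM levels and CPM levels adjusted for the GC slope carry no test. DMSO libraries differed from each other by more than counting noise, and each was counted as 1 library, which does not show that they are separate cultures. The fits without and with the GC slope covariate were run on simulated counts, with an outcome not reported here. Those counts follow the GC slope linearly on the log scale, as the covariate fit assumes. They cannot show that this assumption holds for these libraries. Some overlaps between genes are not reported here.

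All 9 members are named. Of the other lists, genes called are named, with up to 4 of lowest p. The members and lists were chosen with earlier results of these data known, as was the GC slope fit. Alternatives were DESeq2 1.42.0, limma-voom (limma 3.58.1), other scalings, no filter, a block on the title number, and leaving out libraries.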

Additional observations from a re-analysis of the deposited data

How the results depend on the processing

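The arm comparison called 0 of the 9 members under every alternative run. The comparison with the GC slope covariate called 0, but 5 with DESeq2, 1 when scaled by library totals only (SLC6A9, adjusted p = 0.0384 by edgeR, beside 5.35% of all genes), 6 with 80 and 100 µM only and 2 with limma-voom, and 0 to 5 when 1 library was left out. At 60 µM 2 members were called, 5 with DESeq2 size factors (39.5% of all genes), and 0 to 7 when 1 DMSO library was left out. The cause was not tested. All genes called with the covariate numbered 386, against 2038 with DESeq2, 997 with its size factors, 633 with library totals and 0 to 2770 when 1 library was left out.

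Some log2 values changed sign, and the cause was not tested. By library totals only, the arm comparison gave SLC7A1 -0.11 and SLC38A2 0.0228, the dose slope of SLC7A1 was 0.18, SLC7A1 at 40 µM was -0.20, and at 100 µM SLC3A2, SLC7A5, SLC7A1, SLC1A5 and SLC1A4 were 0.27, 0.24, 0.0442, 0.0737 and 0.25. This scaling moved the median gene at 40, 60, 80 and 100 µM to -0.56, -1.57, 0.17 and 0.16, against -0.09, -0.74, -0.05 and -0.05 with TMM. With DESeq2 size factors SLC7A1 was 0.18 at 60 µM, and SLC3A2, SLC7A5 and SLC1A4 were 0.0222, 0.00516 and 0.0205 at 100 µM. With 80 and 100 µM only, SLC7A1, SLC1A5, SLC38A1 and SLC38A2 were -0.0293, -0.0440, 0.26 and 0.84, and SLC7A1 with the covariate was -0.00063. Within 80 and 100 µM against DMSO 2 and 3, an alternative chosen after seeing the data, SLC38A2 was 0.36. With the covariate, SLC7A1 was -0.0031 by limma-voom, also added after seeing the data. With the GC slope covariate the dose slopes of SLC1A5 and SLC6A9 were 0.11 and 0.0872.

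Leaving out 1 library gave, in the arm comparison, -0.0443 to 0.11 for SLC7A1, -0.47 to 0.61 for SLC38A2 and -1.04 to 0.0142 for SLC38A1. With the covariate it gave -0.0628 to 0.11 for SLC7A1 and -0.0334 to 0.15 for SLC38A1. SLC7A1 at 60 µM ran from -0.0907 to 0.0019. At 80 µM SLC38A1 ran from -0.038 to 0.86, SLC3A2 from -0.15 to 0.24, SLC7A5 from -0.0538 to 0.30 and SLC1A5 from -0.11 to 0.29. At 100 µM SLC3A2 ran from -0.23 to 0.17, SLC7A5 from -0.21 to 0.14, SLC1A4 from -0.18 to 0.12, SLC38A1 from -0.10 to 0.80 and SLC6A9 from -0.0107 to 0.33.

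The labels do not say that the title numbers pair the samples. Deviations from the arm means of libraries with the same number had r = 0.627, -0.464, 0.843 and -0.608 for numbers 1 to 4. Lenvatinib libraries 1 and 3 alone were nearest to their own number. In the lenvatinib arm each number is also 1 dose, so these values cannot decide whether samples are paired. With a replicate block 0 members were called in both fits, SLC7A1 with the covariate was -0.0199, and 232 genes were called, against 386 without the block. SLC43A2, called with the covariate, was not called with the block (edgeR adjusted p = 0.0824).

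Depth limits the low members most, as SLC38A1 and SLC7A11 rest on 55 and 75 counts at 60 µM. With 1 library per dose and 4 of DMSO, dose and library cannot be told apart. With 8 libraries that share a GC trend and 5 residual degrees of freedom, estimates with the covariate rest on a straight line against that slope. Of 18 groups of 4 libraries examined for a single library far from the others, 0 were flagged.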
